A study of Mus musculus with 5 samples.

Results

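The translation initiation factors of C2C12, a long-established mouse myoblast line, are described here in cells labelled miR-16 knockdown and in cells with an empty vector. They were chosen by name: every gene in the table of normalized counts whose symbol begins with Eif and a digit of 1 to 6. The names alone gave 54 genes, and 7 of them, the eIF2 kinases (Eif2ak) and the eIF4E-binding proteins (Eif4ebp), were set aside as regulators. That left 47 of the 12615 listed genes, with 10 in the eIF2 group, 14 in the eIF3 group, 13 in the eIF4 group and 10 among eIF1, eIF5, eIF5A and eIF6. Eif2s3y, the Y-linked copy of an eIF2 subunit gene, is not in the table used here.

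Initiation factors bring the ribosome, the initiator tRNA and the messenger RNA together at the start codon. eIF2 carries the initiator tRNA in a complex with GTP, and eIF2B recharges it with GTP after each round; the kinases that phosphorylate eIF2 block this recharging under stress. eIF3 is a large scaffold on the small ribosomal subunit, and eIF4F, made of the cap-binding eIF4E, the helicase eIF4A and the scaffold eIF4G, loads the ribosome onto capped messages. In muscle precursor cells this machinery sets the rate of protein synthesis that growth signals act on.

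The series compared cells labelled miR-16 knockdown (2 samples) with cells given the empty vector pCMVmiR (3 samples). Total RNA was taken after a transfection of 5 hours from myoblasts grown in DMEM with 20% fetal bovine serum, and sequenced. The genotype label says knockdown, but the protocol names a miR-16-1 plasmid, so which way miR-16 was changed is known from the label alone. Whether the samples of a group are separate cultures is not stated, and p-values cover the spread among these samples only, part of which may be technical. The files' column names put knockdown 1, knockdown 2 and empty vector 2 on one flow cell, called B here, and empty vector 1 and 3 on another, called A.

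Reads counted in the listed genes were estimated at 15.1 to 17 M in the knockdown samples and 15.4 to 20.1 M in the empty vector samples. This estimate rests on the steps between low values and is approximate. The initiation factors took 1.44% of the signal in each knockdown sample and 1.36 to 1.43% in empty vector samples. All 7 myoblast markers looked for were listed, Myod1, Myf5 and Des among them, with summed normalized counts of 11737 to 12004 in knockdown samples and 11782 to 12240 in empty vector samples. Of the 13 markers of blood, endothelium, epithelium and fat, 3 were listed, and no such sum exceeded 42.2.

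The microRNA in the labels and the places where its seed could pair are shown first, since they are the sequence link between the manipulation and these transcripts. The capitals mark the seed, bases 2 to 8, of the mature strand as RefSeq gives it on build GRCm38.p6, where it is encoded both at chr3:69009918-69009939 on the plus strand (Mir16-2) and at chr14:61631936-61631957 on the minus strand (Mir16-1).
miR-16-5p: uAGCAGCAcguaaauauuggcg
This seed was shared by 10 mature mouse miRNAs in the RefSeq table, among them miR-15a-5p, miR-195a-5p and miR-497a-5p.

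The longest annotated 3′ UTR of each gene (GENCODE M21, build GRCm38) was searched on the sense strand for TGCTGCT, for the same letters followed by A, and for GCTGCTA. A match was present in 17 of the 47 initiation factors (36.2%), against 3345 of 11509 tested genes with a UTR (29.1%). The full match of 8 letters was found in Eif2b2 and Eif4e2 only, and the cap-binding Eif4e held a match in each of 2 shorter forms. The lines below show these and 2 other members, picked after their values were seen, with the matched letters in capitals. All members shown had log2 differences, knockdown minus empty vector, above 0. Among all 17 members with a match, 9 were above and 8 below 0.
Eif2b2, chromosome 12: agacacagcatTGCTGCTAcagtggggagg
Eif4e2, chromosome 1: agcacgatagtTGCTGCTAgacaccactcc
Eif4e, chromosome 3, the nearer match: tcttgctgatgGCTGCTAgatttaattta
Eif4e, chromosome 3, the farther match: acgttcttgaaTGCTGCTggagttgcatt
Eif3g, chromosome 9: catctgctaccTGCTGCTgttgtccagcc
Eif2s1, chromosome 12, the nearer of 2 overlapping matches: gtattttaatgTGCTGCTgctttgatgga
A match is a run of letters and was not shown here to be bound. The median log2 difference, knockdown minus empty vector, was 0.038 over the 17 members with a match and 0.054 over the 30 without one. Over all tested genes these medians were -0.02 with a match and 0.0087 without. With the trend of each sample on transcript length removed, described below, both orders turned: the medians were 0.054 with a match and 0.0046 without one for the members, and 0.025 and 0.005 for all tested genes. No difference between these medians was tested.

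Initiation factor transcripts were among the more abundant in these myoblasts. Levels were compared between genes as normalized counts per kb of transcript, with the length of the GENCODE transcript that holds the longest coding sequence. On this scale 43 of the 47 stood above the median of all tested genes (179 per kb), and 26 stood in the top 10%, which began at 1034 per kb. Eif5a, whose hypusine-carrying product helps the ribosome through difficult peptide bonds, was the highest. It had 17158 and 17363 counts per kb in the knockdown samples, against 15661, 17436 and 15441 in empty vector samples. Eif4a1, the main helicase of eIF4F, followed with a mean of 6026 per kb over the 5 samples, and Eif1, which guards start codon choice, with 5302. The lowest were Eif4a3l1 at 8.89, Eif3j1 at 56.5 and Eif5a2 at 126 per kb.

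**Figure D1:**
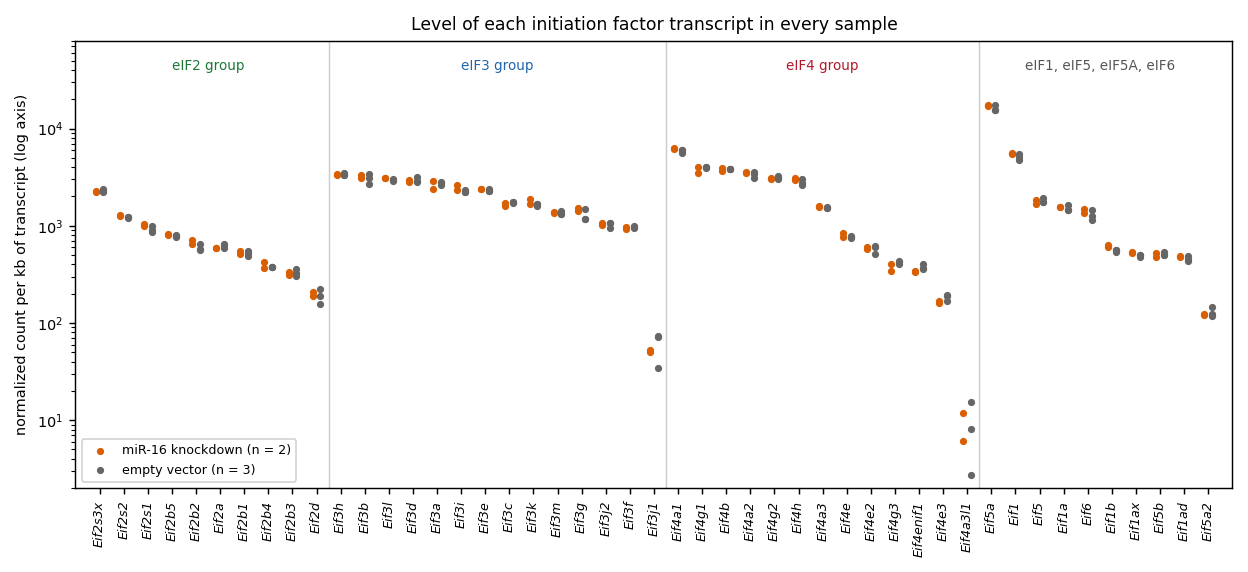
Normalized counts per kb of transcript (log axis) of the 47 initiation factor genes, ordered within each group by their mean; each point is a sample, with miR-16 knockdown (n = 2) left of empty vector (n = 3). Levels run between a mean of 8.89 for Eif4a3l1 and 16612 for Eif5a, and for most genes the 5 points lie close together.

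Levels of subunits of the same complex differed by a few fold in eIF2, eIF2B and the eIF3 core. In eIF4F they differed by more, but this rested on the transcript length taken for Eif4e. The 3 subunits of eIF2 ran between 953 per kb (Eif2s1) and 2274 (Eif2s3x), a ratio of 2.39. The 5 subunits of its exchange factor eIF2B were lower, between 327 (Eif2b3) and 798 (Eif2b5). The 8 members of the eIF3 core (a, c, e, f, h, k, l and m) spanned 3.48-fold, with Eif3h at 3360 and Eif3f at 965 per kb. Within eIF4F, Eif4a1 had 6026, Eif4g1 3884 and Eif4e 781 per kb. The low place of Eif4e depends on which transcript gives the length. With the median transcript length its level was 6.3 times as high, at 4925 per kb, beside 6026 for Eif4a1 and 4025 for Eif4g1. The same change multiplied Eif4a2 by 0.557, Eif4e2 by 1.59 and Eif2s3x by 1.54, and moved no other member by more than 1.5 times.

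No initiation factor passed the test between knockdown and empty vector, and the values of most lay close together in all 5 samples. In limma's test on log2(normalized count + 1), fitted over 11990 genes with a mean of at least 10, 0 of the 47 passed an adjusted p of 0.05, and the share over all tested genes was 0%. The lowest adjusted p of a member was 0.606. At an unadjusted p under 0.05, 0 members stood against 8.13% of all tested genes. Log2 differences ran between -0.17 and 0.24, with 29 above and 18 below 0 and a median of 0.042, against a median of 0.00073 over all tested genes. In bulk samples, fewer cells of a type and less RNA per cell cannot be told apart.

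For most members the limma intervals were narrow. They come from the fit without a flow cell term and cover the spread among these 5 samples only. For 45 of the 47 members (95.7%) the 95% interval lay within 1.5-fold in either direction, against 73.2% of all tested genes; this bound was chosen after the values were seen. The exceptions were Eif3j1, with a ratio between 0.524 and 1.56, and Eif4a3l1, with a ratio between 0.443 and 3.17. The median SD of log2 values over the 5 samples was 0.0813 for the members and 0.138 for all tested genes. The members were also more abundant, with a median of 2629 normalized counts against 545, and the part of abundance in their low spread was not tested.

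**Figure D2:**
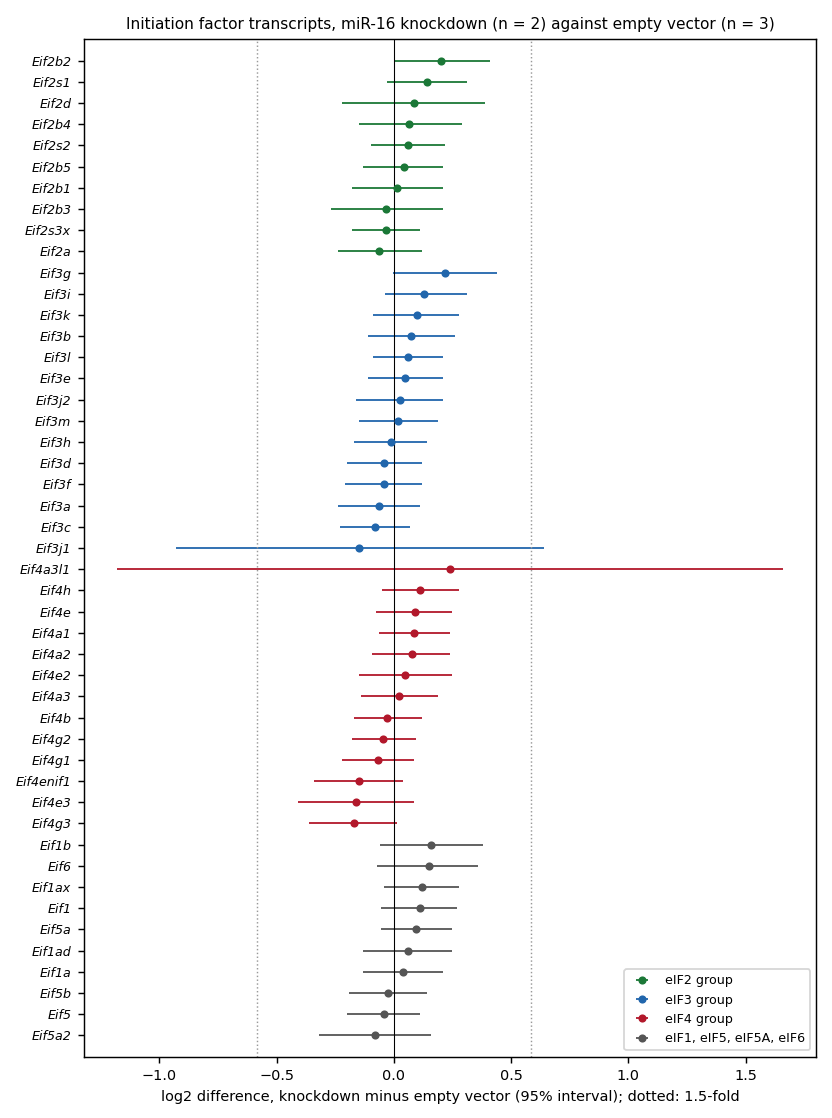
Log2 difference, knockdown minus empty vector, with its 95% interval from limma for each of the 47 genes, by group; dotted lines mark 1.5-fold. The intervals of all but Eif3j1 and Eif4a3l1 stay inside the dotted lines, and the estimates run between -0.17 and 0.24.

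Knockdown and empty vector samples were fully apart for 12 members. Both knockdown samples lay above all 3 empty vector samples for 8 members (17%), against 11.4% of all tested genes. They lay below all 3 for 4 members (8.51%), against 12.4%. The 8 were Eif1, Eif1ax, Eif1b, Eif2b2, Eif2s1, Eif2s2, Eif3l and Eif4a1, and the 4 were Eif3c, Eif4e3, Eif4enif1 and Eif4g3. In each of the 8, both flow cell A samples also lay below all flow cell B samples. Both knockdown samples are on flow cell B, so much of this was set by how the 8 were picked. Only the place of empty vector 2 was free, and the same holds for the 4. For Eif4enif1 and Eif4g3 the flow cell A samples lay above all flow cell B samples, and for Eif3c and Eif4e3 the flow cells overlapped.

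In the authors' deposited table of knockdown against control, 46 of the 47 members had a p-value and 43 an adjusted one. None of the 43 had an adjusted p under 0.05, with a lowest value of 0.36, against 1.06% of all genes given one. At an unadjusted p under 0.05 the authors' deposited table held 3 members, Eif4g3, Eif3g and Eif2b2 (6.52%), against 9.48% of all genes with a p-value. Their ratios in the authors' deposited table were 0.889 for Eif4g3, 1.15 for Eif3g and 1.15 for Eif2b2.

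In the eIF2 group 7 of 10 log2 differences were above 0, with a median of 0.05, and none of the 10 passed the test. Eif2s1, which encodes the alpha subunit that the stress kinases phosphorylate, is on chromosome 12. It had 3513 and 3359 normalized counts in the knockdown samples, against 3053, 3349 and 2955 in empty vector samples. The groups did not overlap, but knockdown 2 and empty vector 2 nearly coincided. The log2 difference was 0.14 with a standard error of 0.081 (limma adjusted p = 0.682), and 0.037 when set against empty vector 2, which shared the flow cell of the knockdown samples.

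Eif2s2 on chromosome 2 encodes the beta subunit. It had 3253 and 3189 counts in the knockdown samples, against 3037, 3119 and 3119 in empty vector samples. The gap between the groups was small beside the level, and the log2 difference was 0.059 (SE 0.074, limma adjusted p = 0.853). Eif2s3x on chromosome X encodes the GTP-binding gamma subunit. It had 8119 and 8232 counts in the knockdown samples, against 8650, 8279 and 8193 in empty vector samples. These groups overlapped, with a log2 difference of -0.034 (SE 0.069, limma adjusted p = 0.915).

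Of the 5 eIF2B genes, Eif2b2 on chromosome 12, the beta subunit and a holder of the 8-letter seed match shown above, had the smallest p of all 47 members. It had 1051 and 1155 counts in the knockdown samples, against 929.1, 1035 and 912.8 in empty vector samples. Every knockdown value was above every empty vector value, although knockdown 1 exceeded empty vector 2 only slightly. The log2 difference was 0.20 (SE 0.095, limma adjusted p = 0.606) and 0.09 against empty vector 2 alone. The other 4 eIF2B genes lay between -0.033 for Eif2b3 and 0.065 for Eif2b4, and Eif2b5, the catalytic subunit gene, was at 0.042.

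The remaining names of the group are not subunits of eIF2. Eif2d, on chromosome 1, encodes a factor that binds initiator tRNA outside the usual route. It had 383.8 and 416.6 counts in the knockdown samples, against 316.1, 446.3 and 378.2 in empty vector samples. The empty vector samples lay on either side of the knockdown samples, and the log2 difference of 0.087 (SE 0.144, limma adjusted p = 0.897) was -0.16 against empty vector 2 alone and -0.039 without empty vector 1. Eif2a, a separate protein despite its name, was at -0.062. Eif2a overlaps Serp1 on the opposite strand, which is the more abundant of the pair (mean 4201 counts against 1404), and the strand setting of the counting is not known here.

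The 14 genes of the eIF3 group centred near 0, with 8 above and 6 below it and a median log2 difference of 0.022. Within the core of 8 subunits, 4 were above and 4 below 0, and the median was 0.003. Eif3h on chromosome 15 had the highest level per kb of the group. It had 4283 and 4374 normalized counts in the knockdown samples, against 4287, 4526 and 4288 in empty vector samples. The groups overlapped, and the log2 difference was -0.012 (SE 0.073, limma adjusted p = 0.975).

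Eif3c on chromosome 7 encodes a central subunit of the core that contacts eIF1 and eIF5. It had 5743 and 5430 counts in the knockdown samples, against 5846, 5928 and 5932 in empty vector samples. Both knockdown samples were the lower ones, with a log2 difference of -0.08 (SE 0.071, limma adjusted p = 0.797) and -0.086 against empty vector 2 alone. Eif3a on chromosome 19, the largest subunit and a scaffold of the complex, had both its extremes in the knockdown group. It had 14737 and 12134 counts in the knockdown samples, against 14485, 14078 and 13336 in empty vector samples. Knockdown 1 was the highest of the 5 and knockdown 2 the lowest, and the log2 difference of -0.062 became 0.078 without knockdown 2.

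The b, g and i subunits form a mobile module at the mRNA entry side of the ribosome. All 3 had log2 differences above 0, with a median of 0.13, and none passed the test; the module was set apart after its values were seen. Eif3g on chromosome 9, an RNA-binding subunit, had 1574 and 1669 counts in the knockdown samples, against 1290, 1625 and 1292 in empty vector samples. Empty vector 2 lay between the knockdown samples, while the other empty vector samples were well below. The log2 difference was 0.22 (SE 0.104, limma adjusted p = 0.612), and -0.0039 against empty vector 2 alone.

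Eif3i on chromosome 4 encodes a propeller-shaped subunit. It had 2642 and 2927 counts in the knockdown samples, against 2477, 2649 and 2483 in empty vector samples. Empty vector 2 again lay among the knockdown values, with a log2 difference of 0.13 (SE 0.081, limma adjusted p = 0.698) over all samples and 0.07 against empty vector 2. Eif3b on chromosome 5, the propeller subunit that anchors the module, had 9709 and 9200 counts in the knockdown samples, against 9058, 9986 and 7997 in empty vector samples. Its highest value was in an empty vector sample, and the log2 difference was 0.074 (SE 0.087, limma adjusted p = 0.843), turning to -0.079 against empty vector 2 and to -0.009 without empty vector 3.

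Eif3j1 and Eif3j2 encode the loosely attached j subunit, and their values are uncertain. The file gives them the same interval on chromosome 18, whereas RefSeq places Eif3j1 on chromosome 2, so the counting could have divided their reads. Eif3j1 had 270.4 and 284.2 counts in the knockdown samples, against 395.3, 186.9 and 391.7 in empty vector samples. The knockdown values lay between those of empty vector 2 and of the other empty vector samples, and the log2 difference of -0.15 (SE 0.329, limma adjusted p = 0.924) was 0.57 against empty vector 2 alone, 0.034 without empty vector 1 and 0.028 without empty vector 3. The sum of the pair was steadier, at 2840 and 2713 in the knockdown samples, against 2961, 2753 and 2632 in the empty vector samples.

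In the eIF4 group 7 members stood above and 6 below 0, with a median log2 difference of 0.023. Without Eif4a3l1, a low copy of Eif4a3 whose reads are uncertain, the median was -0.0025. All 3 scaffold genes had values below 0. Eif4g3 on chromosome 4 had 2120 and 1817 normalized counts in the knockdown samples, against 2275, 2135 and 2229 in empty vector samples. Both knockdown samples were below all empty vector samples, knockdown 1 by a narrow margin. The log2 difference was -0.17 (SE 0.087, limma adjusted p = 0.627) and -0.12 against empty vector 2 alone.

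Eif4g1 on chromosome 16 encodes the main scaffold that joins eIF4E, eIF4A and eIF3. It had 22738 and 19885 counts in the knockdown samples, against 22469, 22478 and 21916 in empty vector samples. Knockdown 1 was the highest and knockdown 2 the lowest of the 5, and the log2 difference of -0.068 (SE 0.071, limma adjusted p = 0.827) was 0.029 without knockdown 2. Eif4g2 on chromosome 7, a relative that lacks the eIF4E-binding part, had 24524 and 24302 counts in the knockdown samples, against 26098, 24154 and 25409 in empty vector samples. The groups overlapped through empty vector 2, with a log2 difference of -0.046 (SE 0.065, limma adjusted p = 0.871) and 0.015 against that sample alone.

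The cap-binding genes had differences on both sides of 0, and none passed the test. Eif4e had 3850 and 4246 counts in the knockdown samples, against 3809, 3883 and 3713 in empty vector samples. Knockdown 2 was the highest and knockdown 1 fell among the empty vector values, with a log2 difference of 0.089 (SE 0.077, limma adjusted p = 0.791). Eif4e2, which competes for the cap and represses translation, had 1755 and 1672 counts in the knockdown samples, against 1778, 1745 and 1472 in empty vector samples. Here empty vector 3 stood low and the groups overlapped, with a log2 difference of 0.046 (SE 0.094, limma adjusted p = 0.917) that was -0.026 against empty vector 2 and -0.04 without empty vector 3.

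Eif4e3, a further cap-binding paralogue, is on chromosome 6. It had 407.6 and 423.1 counts in the knockdown samples, against 427.2, 477.9 and 493.9 in empty vector samples. The groups did not overlap, but knockdown 2 and empty vector 1 nearly met, with a log2 difference of -0.16 (SE 0.116, limma adjusted p = 0.742). Eif4enif1 on chromosome 11 encodes the transporter that carries eIF4E to the nucleus and to P-bodies. It had 1270 and 1217 counts in the knockdown samples, against 1471, 1306 and 1363 in empty vector samples. All knockdown values were lower, with a log2 difference of -0.15 (SE 0.088, limma adjusted p = 0.695) and -0.071 against empty vector 2.

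Of the helicases, Eif4a1 on chromosome 11 had 11184 and 10978 counts in the knockdown samples, against 10691, 10762 and 9838 in empty vector samples. The groups did not overlap, and the log2 difference was 0.088 (SE 0.071, limma adjusted p = 0.777). Eif4a2 on chromosome 16, its paralogue, had 4244 and 4423 counts in the knockdown samples, against 4361, 3833 and 4154 in empty vector samples. These groups overlapped, with a log2 difference of 0.076 (SE 0.079, limma adjusted p = 0.826). The ratio of Eif4a1 to Eif4a2 per kb was 1.82 and 1.72 in the knockdown samples, against 1.7, 1.94 and 1.64 in the empty vector samples.

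Eif4a3, the helicase of the exon junction complex, differed by 0.023 on the log2 scale (SE 0.076), with 2336 and 2399 counts in the knockdown samples against 2305, 2374 and 2314 in empty vector samples. Its low copy Eif4a3l1 had 9.7 and 18.8 counts in the knockdown samples, against 4.27, 24.3 and 12.9 in empty vector samples. At this level the spread within a group exceeded any gap between them, and the log2 difference of 0.24 (SE 0.666) was -0.80 against empty vector 2, -0.37 without empty vector 1 and -0.20 without knockdown 2. Eif4h, a cofactor of the helicase, had 8052 and 8468 counts in the knockdown samples, against 7584, 8249 and 7109 in empty vector samples. Empty vector 2 lay between the knockdown samples, with a log2 difference of 0.11 (SE 0.078, limma adjusted p = 0.726) and 0.0015 against that sample alone. The other cofactor gene, Eif4b, was at -0.028.

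The factors of scanning and start codon choice had values above 0 in all 4 cases, with a median log2 difference of 0.11, and none passed the test. Eif1ax on chromosome X encodes eIF1A, which holds the scanning ribosome open. It had 2806 and 2714 normalized counts in the knockdown samples, against 2460, 2587 and 2578 in empty vector samples. Every knockdown value was higher, with a log2 difference of 0.12 (SE 0.076, limma adjusted p = 0.713) and 0.093 against empty vector 2 alone. Eif1b on chromosome 9 had 663.1 and 621.1 counts in the knockdown samples, against 583.1, 586.7 and 555 in empty vector samples. These groups were also apart, with a log2 difference of 0.16 (SE 0.102, limma adjusted p = 0.713) and 0.13 against empty vector 2.

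Eif1 on chromosome 11 had 7273 and 7355 counts in the knockdown samples, against 6802, 7267 and 6348 in empty vector samples. Knockdown 1 and empty vector 2 were nearly equal, and the log2 difference of 0.11 (SE 0.076, limma adjusted p = 0.744) was 0.0091 against empty vector 2. Eif1a, an autosomal copy of Eif1ax on chromosome 18, was at 0.038 with overlapping groups. Eif1 and Eif1b, and Eif1a and Eif1ax, are near copies that could share reads, so the values of single members are uncertain. Against empty vector 2 alone all 4 stayed above 0, with a median of 0.099; with the trend on transcript length removed it was 0.03. This subset was chosen after its values were seen.

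The late-acting factors gave a mixed picture. Eif5, which makes eIF2 hydrolyse its GTP, was at -0.044 and Eif5b, which joins the ribosomal subunits, at -0.026. Eif5a had 24656 and 24951 counts in the knockdown samples, against 22504, 25056 and 22189 in empty vector samples. Its highest value was in empty vector 2, with a log2 difference of 0.095 (SE 0.07, limma adjusted p = 0.754) and -0.015 against that sample alone. Eif5a2, its low paralogue on chromosome 3, had 616.7 and 608.9 counts in the knockdown samples, against 594.9, 620 and 736 in empty vector samples. Empty vector 3 stood high, and the log2 difference was -0.079 (SE 0.112, limma adjusted p = 0.871) and 0.013 without that sample.

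Eif6 on chromosome 2 encodes the factor that keeps free large subunits from joining. It had 2017 and 2248 counts in the knockdown samples, against 1910, 2186 and 1708 in empty vector samples. Empty vector 2 lay among the knockdown values, with a log2 difference of 0.15 (SE 0.101, limma adjusted p = 0.733) and -0.038 against that sample alone. Eif1ad, named for its eIF1A-like domain, was at 0.062 and overlaps the more abundant Banf1 on the opposite strand.

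Set side by side, the medians of the 3 large groups lay close together. The median log2 difference was 0.05 for eIF2, 0.022 for eIF3 and 0.023 for eIF4. The eIF3 median minus the eIF2 median was -0.028, and the eIF2 median minus the eIF4 median was 0.028. Median deviations from the empty vector mean were 0.02 and 0.058 in the knockdown samples for eIF2, against -0.014, 0.00034 and 0.0044 in empty vector samples. For eIF3 they were 0.033 and 0.017 in the knockdown samples, against 0.0088, 0.015 and -0.029 in empty vector samples. For eIF4 they were 0.018 and 0.011 in the knockdown samples, against 0.012, 0.027 and -0.01 in the empty vector samples.

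Knockdown medians stood above all empty vector medians for eIF2 and eIF3, and within their range for eIF4. No test was made over a group. Leaving out empty vector 3 turned the sign of 2 medians, to -0.0024 for eIF3 and -0.032 for eIF4. The eIF4 median also turned without empty vector 1, to -0.021. For eIF2 the median was 0.018 without empty vector 1 and 0.02 without knockdown 2.

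**Figure D3:**
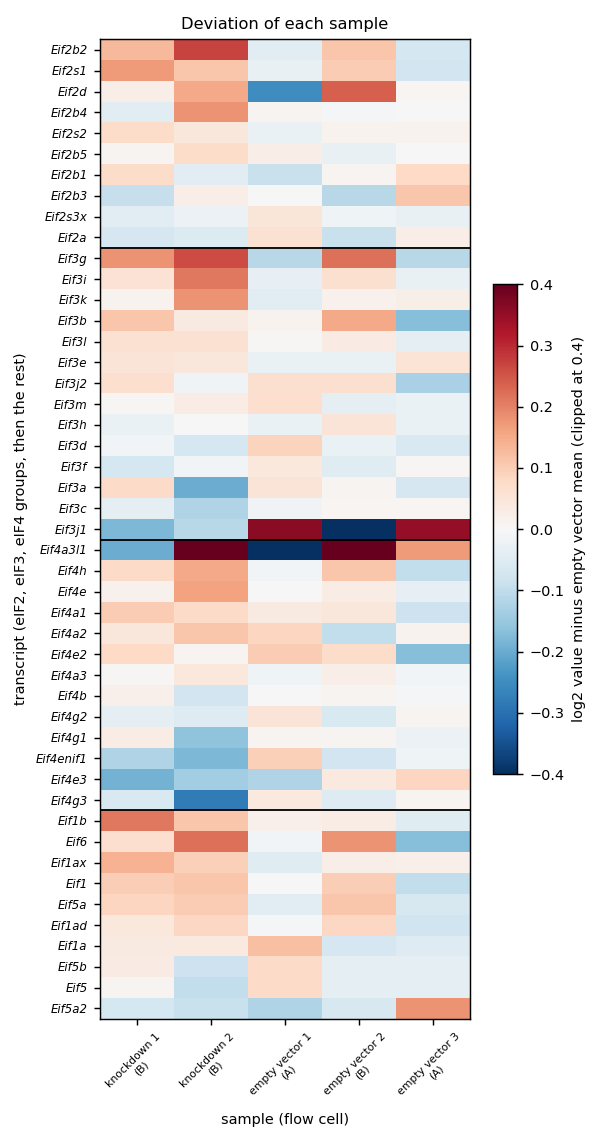
Log2 value of each sample minus the mean of the empty vector samples, for the 47 genes (down the page, by group) in knockdown 1 and 2 and empty vector 1, 2 and 3, with the flow cell in brackets; colours are clipped at 0.4. For Eif3g the knockdown samples and empty vector 2 are above the empty vector mean, and empty vector 1 and 3 are below it.

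Several members divided by flow cell, but this division mixes flow cell with group. Flow cell A holds only empty vector samples, and both knockdown samples are on flow cell B. Counts of this split alone cannot tell flow cell and group apart. Both flow cell A samples, empty vector 1 and 3, lay below all flow cell B samples for 18 members (38.3%), against 16.6% of all tested genes. They lay above all flow cell B samples for 6 members (12.8%), against 16%. The lower set included Eif1, Eif1ax and Eif1b, Eif2s1 and Eif2b2, the module Eif3b, Eif3g and Eif3i, and the helicase genes Eif4a1 and Eif4h. With flow cell as a term in limma, 5 members (10.6%) had an unadjusted p under 0.05 for that term, against 6.74% of all tested genes. They were Eif3j1, Eif3g, Eif3b, Eif6 and Eif5a, and none passed after adjustment, with Eif3j1 nearest at an adjusted p of 0.0643.

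The difference of flow cell A minus B was 1.07 on the log2 scale for Eif3j1 (SE 0.177) and -0.33 for Eif3g (SE 0.108). It was -0.28 for Eif6 (SE 0.115), -0.23 for Eif3b (SE 0.0929) and -0.17 for Eif5a (SE 0.0696). On flow cell B, where only empty vector 2 stands against the knockdown samples, the median over the 47 members was 0.0039, with 25 above and 22 below 0. With the group in the fit, the flow cell term sets empty vector 1 and 3 against empty vector 2 alone. Its values and p-values therefore cannot be told apart from a trait of that single sample. Flow cell, lane and the series of identifiers in the column names cannot be told apart either.

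**Figure D4:**
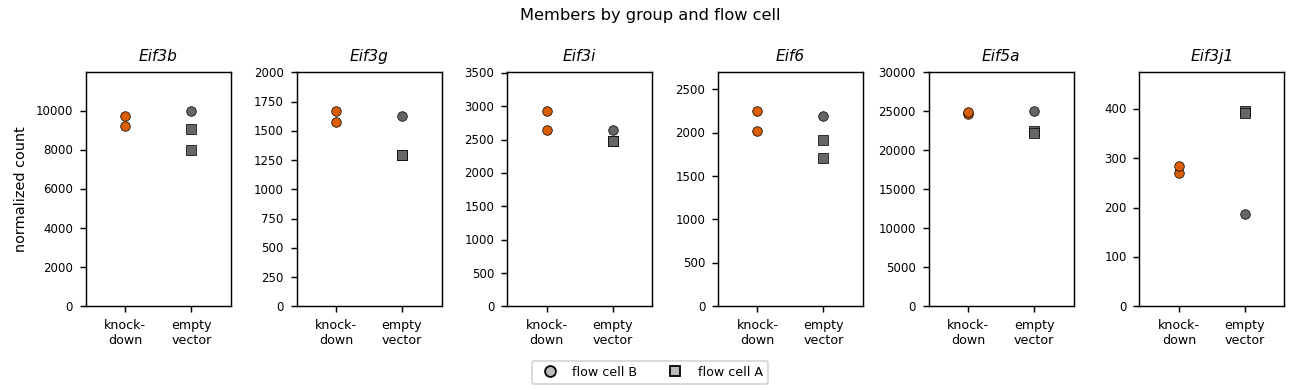
Normalized counts of 6 members in knockdown samples (orange, left) and empty vector samples (grey, right); circles are flow cell B and squares flow cell A, and each axis starts at 0. For Eif3g the knockdown samples sit at 1574 and 1669 counts, with empty vector 2 (the grey circle) at 1625 and the squares of empty vector 1 and 3 at 1290 and 1292.

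Transcript length moved with the direction of the small differences. Of the 15 members with a transcript of at least 3000 nt, 3 were above and 12 below 0, with a median of -0.046. Of the 32 shorter ones, 26 were above and 6 below 0, with a median of 0.061. The length bound was chosen after the values were seen. All tested genes showed a like trend, with a median of 0.13 in the shortest of 10 length bins (median length 893 nt) and -0.17 in the longest (7864 nt). Against empty vector 2 alone, on the shared flow cell, these medians were 0.032 and -0.11.

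With each sample's trend on length removed, the medians were 0.016 for the longer members and 0.018 for the shorter ones. The eIF4G scaffolds are long, at 5638 nt for Eif4g1, 7995 nt for Eif4g2 and 5289 nt for Eif4g3, and their median was -0.068 with the trend in place and 0.023 with it removed. The eIF3 median was -0.036 after removal. Log2 change per doubling of length, taken as a deviation in each sample, was -0.013 and -0.089 in the knockdown samples, against 0.07, -0.015 and 0.048 in empty vector samples. The part of length in the differences of single members was not tested.

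**Figure D5:**
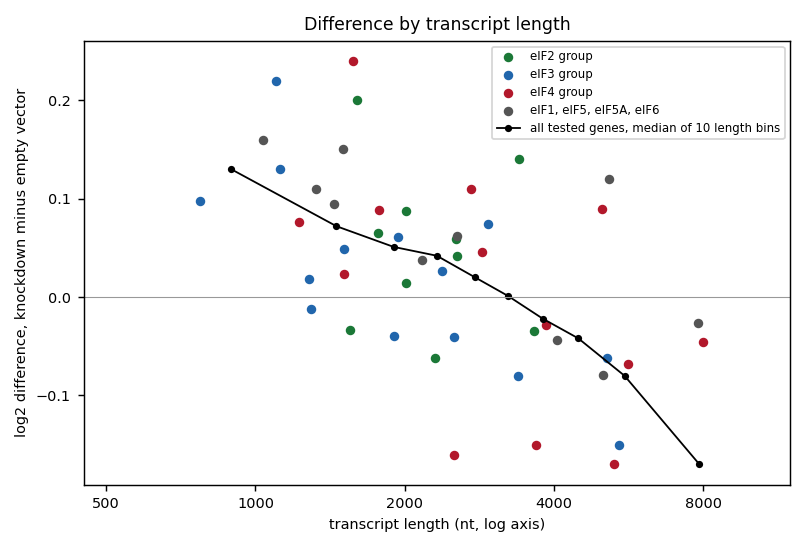
Log2 difference, knockdown minus empty vector, against transcript length in nt (log axis) for the 47 genes, coloured by group; the black line joins the medians of all tested genes in 10 bins of length. The line goes down from 0.13 at 893 nt to -0.17 at 7864 nt, and the members scatter around it.

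Ratios of paralogues overlapped between the groups for most pairs. Eif5a exceeded Eif5a2 per kb by 140 and 143 times in the knockdown samples, against 132, 141 and 105 times in empty vector samples. Eif1 exceeded Eif1b by 8.59 and 9.27 times in the knockdown samples, against 9.13, 9.7 and 8.96 times in empty vector samples. Both of these pairs overlapped between the groups. Eif4g1 exceeded Eif4g3 by 10.1 and 10.3 times in the knockdown samples, against 9.27, 9.88 and 9.22 times in empty vector samples. This ratio was higher in both knockdown samples than in any empty vector sample, and no ratio was tested.

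No regulator of these factors passed the test either. The list held 15 genes: eIF2 kinases, eIF2 phosphatase subunits, 4E-binding proteins, the mTOR and MNK kinases, Rps6kb1, Pdcd4 and Larp1. After adjustment 0 passed, and 1 had an unadjusted p under 0.05, against 8.13% of all tested genes. There were 5 above and 10 below 0, with a median of -0.061 that was 0.011 with the length trend removed. Eif4ebp1, the repressor that holds eIF4E until mTOR phosphorylates it, had the smallest p. It had 1479 and 1737 counts in the knockdown samples, against 1238, 1534 and 1262 in empty vector samples. Empty vector 2 lay between the knockdown samples, and the log2 difference of 0.26 (limma unadjusted p = 0.028, adjusted p = 0.565) was 0.064 against that sample alone. Eif2ak4, the kinase that senses uncharged tRNA, had 560.7 and 441.9 counts in the knockdown samples, against 561.7, 564.8 and 652.5 in empty vector samples. Knockdown 1 and empty vector 1 nearly met, with a log2 difference of -0.25 (limma adjusted p = 0.627).

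Partners of the initiation factors showed 4 of 11 above 0 and 7 below, with a median of -0.05 and 0 at an adjusted or unadjusted p under 0.05 (0% and 8.13% of all tested genes). Pabpc1, the poly(A)-binding protein that eIF4G binds, was at -0.11 (limma adjusted p = 0.699), and Mcts1, a partner of Denr in reinitiation, at 0.19 (limma adjusted p = 0.707). Of 9 tested elongation and termination genes, 5 were above and 4 below 0, with a median of 0.035 and again 0 at an adjusted or unadjusted p under 0.05 (0% and 8.13% of all tested genes). Their median was -0.032 against empty vector 2 alone, with 3 above and 6 below 0. Eef1b2 and Eef1d, exchange subunits for the elongation factor that delivers tRNAs, were at 0.15 and 0.13 (limma adjusted p = 0.684 and 0.713). Eef1b2 was at -0.032 and Eef1d at 0.019 against empty vector 2 alone.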

How the data were processed

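Gene expression was read from a deposited table of normalized counts, a deposited signal whose low values step as read counts scaled by 1 factor per sample do. Between 88.7% and 89.2% of values up to 100 reads were whole within a tolerance of 0.02, too few to recover reads, and therefore no count-based test was run. STAR, Partek, DESeq2 1.34.0 and build mm9 are named in the submitters' processing notes, without their roles. The strand setting was not given in the sources used here. The build of the file's positions was not settled, and chromosomes alone are given for genes. The p-value, adjusted p-value and linear ratio per gene in the authors' deposited table were copied.

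Values were taken as log2(value + 1), which understates fold changes of low genes. Genes averaging 10 or more over the samples, 11990 in all, were fitted with limma 3.58.1 in R 4.3.3 (trend, robust), two-sided, with Benjamini-Hochberg adjustment over all of them and a threshold of 0.05. The script was tested on simulated data. GENCODE M21 gave lengths and 3′ UTRs, matching 12303 symbols directly and 199 through older names, with 113 unmatched. Members, lists and tests were chosen with earlier results of these data known. Full values are given by rule for 29 members, those of smallest p and extreme level in each group and the paralogues; any other member or subset described was chosen after its values were seen. Alternatives were another pseudocount, other filters, quantile normalization, no variance trend, terms for flow cell, length or replicate number, and leaving out each sample.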

Additional observations from a re-analysis of the deposited data

How the results depend on the processing

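Across 13 alternatives no initiation factor passed an adjusted p of 0.05, and the lowest adjusted p of a member was 0.147, without empty vector 2. Of 610 member values under the alternatives, 550 kept their sign and 60 changed it. The replicate block and the fit without empty vector 3 gave the same log2 differences, so the signs they changed are counted under each. Members at an unadjusted p under 0.05 numbered 2 with quantile normalization (8.57% of all tested genes), 1 with a flow cell term (2.54%), 3 with the length trend removed (5.68%), and 0 to 8 when 1 sample was left out, with 8 without empty vector 2 (13%). Members with groups apart numbered 14 to 28 when 1 sample was left out, which by construction makes separation easier. The share over all tested genes was not taken for these settings, so the counts cannot be read as a trait of the members. Over all genes, 28 passed without empty vector 2 and 107 without knockdown 1. The cause of the other shifts was not tested.

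Medians moved as follows. With a mean of at least 50, the eIF4 median was -0.0025, eIF3 minus eIF4 was 0.025 and eIF2 minus eIF4 was 0.053, since Eif4a3l1 drops out. Quantile normalization gave 0.067 for eIF2 and 0.047 for eIF3. The flow cell term gave -0.026 for eIF4, 0.028 for eIF3 minus eIF4 and 0.068 for eIF2 minus eIF4. Removing the length trend gave 0.024 for eIF2, -0.036 for eIF3, -0.059 for eIF3 minus eIF4, -0.06 for eIF3 minus eIF2 and 0.0013 for eIF2 minus eIF4. Leaving out 1 sample gave 0.018 to 0.059 for eIF2, -0.0024 to 0.043 for eIF3, -0.032 to 0.026 for eIF4, -0.0012 to 0.064 for eIF3 minus eIF4, -0.061 to 0.025 for eIF3 minus eIF2 and 0.0012 to 0.091 for eIF2 minus eIF4.

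Signs of single members turned with the flow cell term for Eif1ad (-0.022), Eif2a (0.026), Eif2b3 (0.075), Eif2d (-0.16), Eif3b (-0.079), Eif3f (0.0065), Eif3g (-0.0039), Eif3j1 (0.57), Eif3j2 (-0.039), Eif4a3 (-0.0041), Eif4a3l1 (-0.80), Eif4e2 (-0.026), Eif4g2 (0.015), Eif5a (-0.015), Eif5b (0.012) and Eif6 (-0.038). They turned with the length trend removed for Eif2b1 (-0.022), Eif2s3x (0.0029), Eif3a (0.017), Eif3e (-0.023), Eif3k (-0.055), Eif3m (-0.073), Eif4a2 (-0.021), Eif4a3 (-0.049), Eif4b (0.016), Eif4g1 (0.023), Eif4g2 (0.087), Eif5 (0.0063) and Eif5b (0.10). Leaving out 1 sample gave ranges across 0 of -0.046 to 0.073 for Eif2b1, -0.091 to 0.026 for Eif2b3, -0.046 to 0.18 for Eif2b4, -0.039 to 0.21 for Eif2d, -0.20 to 0.078 for Eif3a, -0.009 to 0.15 for Eif3b, -0.07 to 0.0042 for Eif3d, -0.028 to 0.014 for Eif3h, -0.50 to 0.034 for Eif3j1, -0.039 to 0.067 for Eif3j2 and -0.00066 to 0.051 for Eif3m. It gave -0.37 to 0.77 for Eif4a3l1, -0.076 to 0.021 for Eif4b, -0.04 to 0.096 for Eif4e2, -0.16 to 0.029 for Eif4g1, -0.098 to 0.01 for Eif5, -0.14 to 0.013 for Eif5a2 and -0.083 to 0.032 for Eif5b.

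The replicate numbers 1 and 2 occur in both groups. Same-numbered samples deviated together only weakly, with correlations across genes of 0.086 and 0.029. Deviations of the 2 knockdown samples from their mean mirror each other, and the samples numbered 1 came from different flow cells. These correlations therefore cannot settle whether the numbers pair samples. With the replicate block, 1 member (Eif4g3) had an unadjusted p under 0.05, against 12.5% of all tested genes, and 0 passed after adjustment, while 311 of all genes passed. No knockdown sample is numbered 3, so the block in effect sets empty vector 3 aside. Log2 differences with the block therefore equal those without empty vector 3. The block gave medians of -0.0024 for eIF3 and -0.032 for eIF4, and 0.03 for eIF3 minus eIF4, -0.061 for eIF3 minus eIF2 and 0.091 for eIF2 minus eIF4. It turned the sign of Eif2b3 (0.022), Eif3b (-0.009), Eif3j1 (0.028), Eif3j2 (-0.039), Eif4e2 (-0.04) and Eif5a2 (0.013).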

Other observations

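A minority of the initiation factor promoters held each of 2 short motifs, which were chosen after the values were seen and are given as a description with no test. Promoter windows of 250 bases before to 50 bases after the gene start (RefSeq, GRCm38.p6) were found for 38 of the 47 members. CACGTG is the palindromic E-box that Myc and related factors are known to bind. It occurred in 10 of the 38 (26.3%), against 8.09% of all 27025 genes with such a window. This background is wider than the tested genes used elsewhere and includes genes not listed in the series. The share over tested genes was not taken. CACGTG was present in 0 of 9 eIF2 genes, 3 of 10 eIF3 genes, 4 of 11 eIF4 genes and 3 of 8 others. CCGGAAG, a core that ETS factors are known to bind, was searched on both strands. It occurred in 14 of the 38 (36.8%), against 9.93% of the same wider set of genes. All 3 core genes of eIF4F held the E-box, in capitals below.
Eif4e, chr3:138527177-138527236, plus strand: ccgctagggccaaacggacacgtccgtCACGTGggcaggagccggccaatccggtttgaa
Eif4a1, chr11:69672580-69672639, minus strand: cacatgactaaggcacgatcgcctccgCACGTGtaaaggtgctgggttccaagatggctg
Eif4g1, chr16:20672646-20672705, plus strand: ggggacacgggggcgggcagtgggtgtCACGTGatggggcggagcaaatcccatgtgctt
The median log2 difference was 0.089 over the 10 members with CACGTG and 0.044 over the other members with a window, and this was not tested.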
